A study of Homo sapiens with 6 samples.

Results

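The genes described here encode the translation initiation factors, the proteins that bring mRNA, initiator tRNA and the ribosomal subunits together at the start codon. They were taken as the protein-coding entries whose symbols start with EIF1 to EIF6, leaving out the EIF2AK kinases, which gave 52 of the 58938 entries in the table. The symbols divide into 5 EIF1, 11 EIF2, 14 EIF3, 16 EIF4 and 5 EIF5 genes and EIF6. The members were measured by RNA sequencing of HCT116, an established human colorectal cancer line, in 3 vector libraries (genotype WT in the labels) and 3 libraries of cells carrying an overexpression plasmid for MST3, a protein kinase encoded by STK24. The labels describe the same procedure for all 6 samples, transfection with a lipid reagent at 60% density, new medium after 6 hours and RNA collection after 30 hours, so no untransfected cells were compared. The overexpression is transient, and the labels give neither the promoter of the plasmid nor the share of cells that took it up. Nor is it stated that replicates came from different cultures, and p-values therefore reflect the variation among these 6 samples alone, which may be technical.

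Initiation in animal cells runs through a fixed order of assemblies. eIF2 with GTP carries the initiator tRNA to the small ribosomal subunit, where eIF1, eIF1A, eIF3 and eIF5 join it, while eIF4E binds the mRNA cap and recruits the scaffold eIF4G and the helicase eIF4A. Recognition of the start codon is followed by GTP hydrolysis on eIF2, by joining of the large subunit through eIF5B, and by recycling of eIF2 through its exchange factor eIF2B. Signalling reaches the pathway at 2 main points, the phosphorylation of eIF2 by the EIF2AK kinases and the control of the 4E-BP proteins by mTORC1. The libraries measured mRNA alone, so neither protein levels nor these phosphorylations were measured.

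Values are FPKM, fragments per kilobase of gene scaled for each library by the authors. Levels of different genes compare only as far as the length used suits each gene. The length used was that of all annotated exons of the gene, which equalled the GENCODE 29 exon union for all 52 members, so genes with long untranslated exons that are little used have low FPKM. The libraries held 15289213 to 17708029 recovered reads. STK24, the gene on the plasmid, stood at 17.1, 17.4 and 17.4 FPKM with vector and at 63.7, 72.2 and 76 FPKM with MST3, and it was called by limma (log2 difference 1.97, adjusted p = 0.000998), while an exact permutation test gave p = 0.1, the smallest that 3 against 3 allow. The epithelial markers EPCAM, KRT8, KRT18, KRT19 and CDH1 averaged 33.4 to 957 FPKM, CDX2 3.33 FPKM, and VIL1, an intestinal marker, 0.0112 FPKM. Of 8 markers of blood, endothelium and fibroblasts, 7 averaged at most 0.153 FPKM, and COL1A1 stood at 4.25 FPKM.

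Several members are near copies of one another, which can limit what short reads separate, and the sequences below show how alike or unlike such copies are. The first set covers the coding bases around the lysine codon of eIF5A that is modified to hypusine, the rare amino acid this protein needs to work, and capitals mark bases that differ from EIF5A. The codon lies at bases 28 to 30 of each window. All are read from GENCODE 29 transcripts (GRCh38), in the sense of the mRNA.
EIF5A: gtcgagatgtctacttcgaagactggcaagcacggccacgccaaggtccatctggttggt
EIF5AL1: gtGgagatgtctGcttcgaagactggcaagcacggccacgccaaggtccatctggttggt
EIF5A2: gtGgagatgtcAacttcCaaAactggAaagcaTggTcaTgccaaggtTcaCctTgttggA
EIF5AL1 differs from EIF5A at 2 of the 60 bases and EIF5A2 at 12. Over the aligned coding sequence EIF5AL1 was 98.9% identical to EIF5A, and EIF5A2 was 72.2% identical. The second set is the start of the coding sequence of 2 genes for the eIF3 subunit c, and the third that of the paralogs EIF1 and EIF1B, with capitals for bases that differ from EIF1.
EIF3C: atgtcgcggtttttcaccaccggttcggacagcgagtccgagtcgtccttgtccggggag
EIF3CL: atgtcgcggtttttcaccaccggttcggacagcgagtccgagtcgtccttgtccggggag
EIF1: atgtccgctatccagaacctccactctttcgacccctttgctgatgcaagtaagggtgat
EIF1B: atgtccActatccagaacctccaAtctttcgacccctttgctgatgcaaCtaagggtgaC
EIF3C and EIF3CL had 0 differences over 2739 aligned coding bases. EIF1B was 82% identical to EIF1 over 339 aligned bases, and none of its stretches of 50 bases occurs in a transcript of another gene.

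Of the 52 members, 48 averaged at least 1 FPKM over the 6 libraries and were tested. The level ran from 212 FPKM for EIF5A, at the 99th percentile of tested genes, down to 1.32 FPKM for EIF3CL, and 37 of the 48 lay above the median of tested genes. EIF5A ranked first among members in every library. EIF4H, EIF3I, EIF4B and EIF1 followed at 183, 161, 148 and 131 FPKM. EIF4B had rank 4 and EIF1 rank 5 in every library, and EIF4H and EIF3I exchanged ranks 2 and 3 between libraries. From EIF2S3 (90.1 FPKM) to EIF3D (84.1 FPKM) the ranges over libraries overlapped, so the order of those 4 genes was not fixed. The 52 members summed to 2063, 2140 and 2141 FPKM with vector and to 2147, 2156 and 2134 FPKM with MST3, a ratio of 1.01. The sums of the 2 groups overlapped, and they also did without EIF5A (1894 to 1967 against 1860 to 1956 FPKM).

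**Figure D1:**
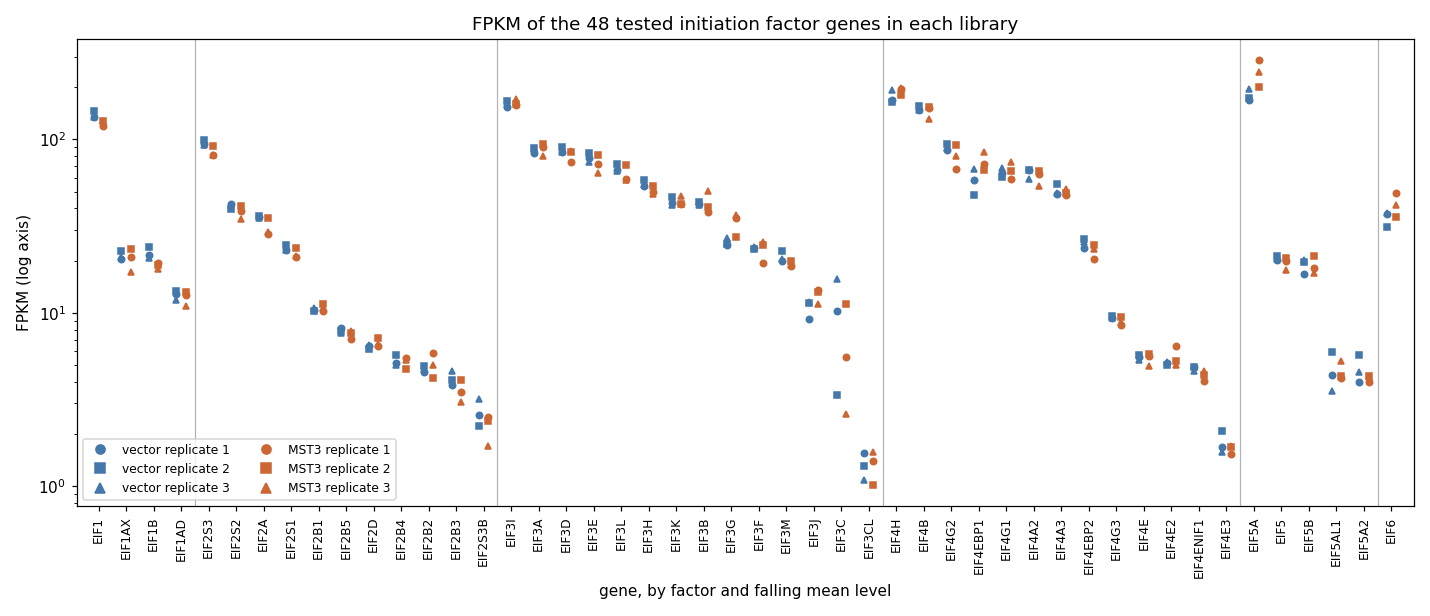
FPKM (log axis) of the 48 tested initiation factor genes, ordered by factor and by falling mean level, with 1 point per library (blue for vector, orange for MST3, symbol shape for the replicate). Levels run from about the testing minimum of 1 FPKM to 287 FPKM for EIF5A, the libraries of a gene mostly lie close together, and EIF3C spreads from 3.34 to 15.6 FPKM with vector and from 2.62 to 11.2 FPKM with MST3.

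None of the 48 tested members passed limma over all 13036 tested genes, where 1 gene, STK24, was called (0.00767%), and the smallest adjusted p of a member was 0.719. At an unadjusted p under 0.05 there were 4 members, with EIF5A, EIF3G and EIF4EBP1 higher and EIF1B lower in the MST3 libraries, against 5.38% of all tested genes (3.51% higher and 1.86% lower). That count depended on single libraries, becoming 0 when vector replicate 1 or vector replicate 2 was left out, 2 when MST3 replicate 1 or 3 was, and 10 when MST3 replicate 2 was. The count over all 13036 tested genes moved as well, from 701 to 444 without vector replicate 1 and 298 without vector replicate 2. It was 452, 2554 and 869 without MST3 replicates 1, 2 and 3, so these swings were not particular to the members. Of the 48 members 30 were lower and 18 higher, with a median log2 difference of -0.06, beside 53.4% of all tested genes lower and a median of -0.01. The groups did not overlap for 6 members, with EIF5A and EIF3G higher and EIF1, EIF1B, EIF2S3 and EIF4ENIF1 lower, where 11.9% of all tested genes did not overlap (5.19% higher and 6.7% lower). On the log2(FPKM + 1) scale 42 members had a 95% interval that stayed inside 0.5 of 0, and 47 inside 1 of 0, the exception being EIF3C.

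**Figure D2:**
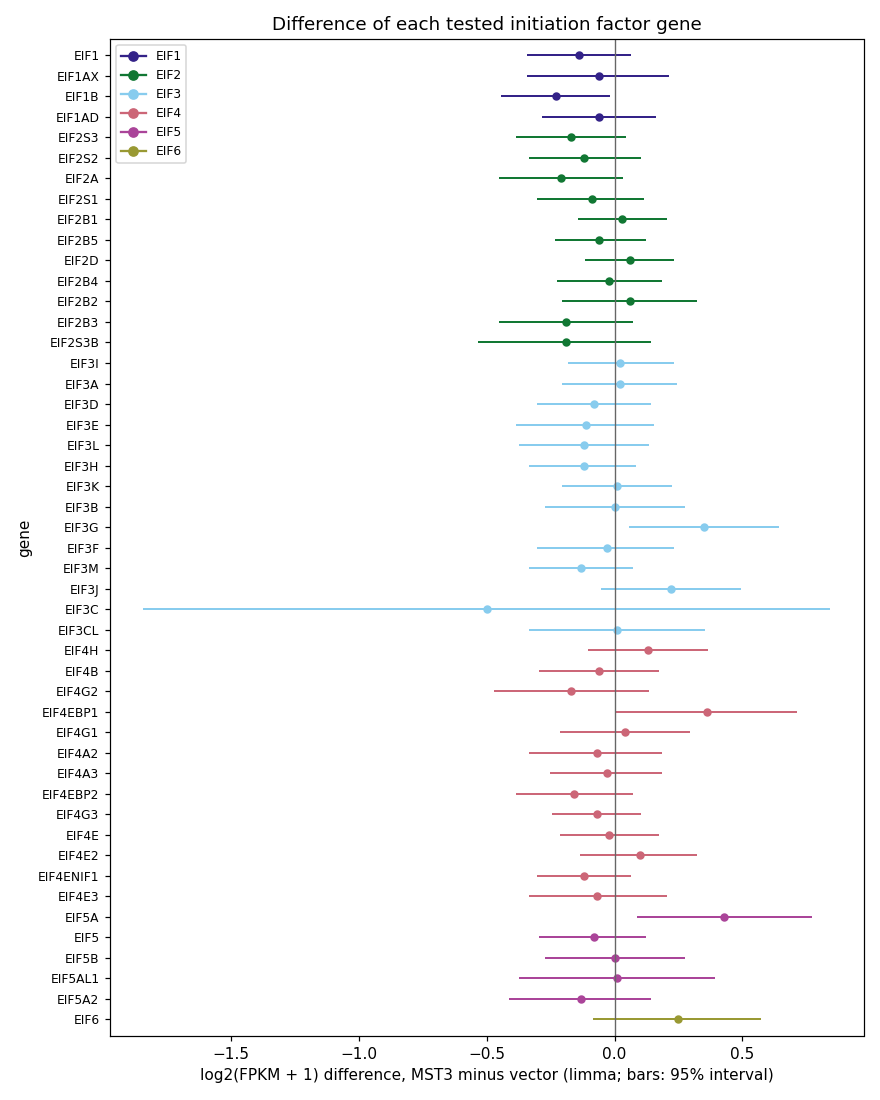
Difference on the log2(FPKM + 1) scale between MST3 and vector libraries for each of the 48 tested members, with its 95% interval by limma, coloured by factor. The intervals of EIF5A, EIF3G, EIF4EBP1 and EIF1B leave out 0 before adjustment, and the interval of EIF3C (-1.84 to 0.84) is the widest.

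Of the 5 EIF1 genes 4 were tested and none passed. All 4 had a lower mean in the MST3 libraries, with a median log2 difference of -0.10. EIF1 and EIF1B did not overlap between groups while EIF1AX and EIF1AD did. Over all tested genes 53.4% were lower, and 6.7% were lower without overlap. EIF1 encodes the small protein that keeps the ribosome scanning until the start codon is met, and it had 134, 145 and 134 FPKM with vector and 119, 128 and 127 FPKM with MST3. Its groups did not overlap, at 138 ± 6.21 against 125 ± 4.73 FPKM (SD, n = 3; log2 difference -0.14, adjusted p = 0.719 by limma). EIF1B, its paralog, had 21.6, 24.1 and 20.6 FPKM against 19.3, 18.9 and 17.8 FPKM, again with every MST3 library under every vector library. Its log2 difference was -0.23 (SE 0.09, 95% interval -0.44 to -0.02), with an unadjusted p = 0.0342 and an adjusted p = 0.719 by limma. The level of EIF1 was 6 to 7.14 times that of EIF1B over the 6 libraries, and this ratio overlapped between groups. EIF1AX, one of the genes for eIF1A, which works beside eIF1, had 21.3 ± 1.22 and 20.5 ± 2.97 FPKM (SD, n = 3). EIF1AD matched by its name (it shares a domain with eIF1A and is not itself a core factor) and had 12.7 and 12.2 FPKM. The Y-linked EIF1AY, at a mean of 0.115 FPKM, was too low to test. Summed over the 5 genes, the level was 194 ± 9.72 FPKM with vector against 176 ± 6.27 FPKM with MST3 (SD, n = 3). EIF1 alone held 138 and 125 FPKM of these sums, so they mostly repeat its difference.

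The 3 subunits of eIF2 were each lower in the MST3 mean, by log2 differences of -0.09 to -0.17. EIF2S3, the gamma subunit that binds GTP and the initiator tRNA, had 94.6, 99.7 and 92.3 FPKM in vector and 81, 91.2 and 81.7 FPKM in MST3 libraries. All MST3 values lay under the vector values, with MST3 replicate 2 close to the lowest of them (log2 difference -0.17, SE 0.09, adjusted p = 0.719 by limma). EIF2S1, the alpha subunit that the stress kinases phosphorylate, had 23.5 ± 0.989 and 22 ± 1.63 FPKM, and EIF2S2, the beta subunit, 41.3 ± 1.37 and 38.1 ± 3.24 FPKM (SD, n = 3). Both of these overlapped between groups. In FPKM the gamma subunit stood 4.13, 4.05 and 4.03 times as high as the alpha subunit with vector. With MST3 it stood 3.87, 3.83 and 3.86 times as high, which did not overlap. This ratio was not tested. It was one of several gene pairs chosen by hand, most of which overlapped, and the share of pairs without overlap over all genes was not measured. The beta subunit mRNA stood 1.62 to 1.85 times as high as the alpha subunit mRNA, with overlap. EIF2S3B, a retained copy of EIF2S3 whose coding sequence was 98.2% identical, stood at 2.43 FPKM.

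EIF2A, which despite its symbol is a separate protein that can deliver initiator tRNA without GTP, had 35.7, 36.4 and 35.1 FPKM in vector and 28.4, 35.3 and 29.1 FPKM in MST3 libraries. MST3 replicates 1 and 3 were low and MST3 replicate 2 lay among the vector values (log2 difference -0.21, SE 0.10, adjusted p = 0.719 by limma). EIF2D, another tRNA-delivering factor, had 6.4 and 6.72 FPKM. The 5 subunits of eIF2B, the exchange factor that reloads eIF2 with GTP, were expressed at 3.86 to 10.6 FPKM, below the eIF2 subunits. Of these EIF2B3, part of the catalytic pair, had 3.82, 4.09 and 4.6 FPKM in vector and 3.49, 4.08 and 3.04 FPKM in MST3 libraries, with overlap between the groups (log2 difference -0.19, SE 0.11). EIF2B1, EIF2B2, EIF2B4 and EIF2B5 had log2 differences of 0.03, 0.06, -0.02 and -0.06. Over all 11 EIF2 genes 8 were lower and 3 higher, with a median of -0.09, beside 53.4% of all tested genes lower.

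The 13 subunits of eIF3, the largest initiation factor and the scaffold that binds the small subunit, had very unequal FPKM. These values depend on exon lengths that differ, such as 1725 bases for EIF3I and 8998 bases for EIF3B. EIF3I was the highest at 161 FPKM, and EIF3A, EIF3D, EIF3E, EIF3L and EIF3H followed at 87.3 to 53 FPKM. Leaving out EIF3C, the lowest was EIF3J at 11.7 FPKM, which encodes a subunit that is only loosely attached, and the highest subunit exceeded the lowest 11.5 to 16.5 times within a library. Over the 14 EIF3 genes 7 were higher and 7 lower, with a median log2 difference of -0.01. EIF3G, an RNA-binding subunit, had 24.6, 24.9 and 27.1 FPKM in vector and 35.3, 27.3 and 36.5 FPKM in MST3 libraries. Its groups did not overlap, but MST3 replicate 2 lay next to vector replicate 3 while the other 2 MST3 libraries stood well above. The ratio of means was 1.29 and the log2 difference 0.35 (SE 0.12, 95% interval 0.06 to 0.64), with an unadjusted p = 0.0236 and an adjusted p = 0.719 by limma. Leaving out vector replicate 1 or 2, or MST3 replicate 1 or 3, gave an unadjusted p of 0.0761, 0.0689, 0.0658 and 0.0645 by limma. Without vector replicate 3 it was 0.0378 (log2 difference 0.39), and without MST3 replicate 2 it was 0.00126 (log2 difference 0.48).

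EIF3J had 9.26, 11.4 and 11.6 FPKM in vector and 13.6, 13.2 and 11.2 FPKM in MST3 libraries, with MST3 replicate 3 among the vector values (log2 difference 0.22, SE 0.11). EIF3M, EIF3H and EIF3L lay the other way. EIF3M had 19.8, 22.8 and 20.4 FPKM with vector and 18.7, 19.8 and 18.8 FPKM with MST3. EIF3H had 53.6, 58.2 and 54.3 FPKM against 49.5, 54.2 and 48.5 FPKM. EIF3L had 66.9, 72.5 and 65.5 FPKM against 59.5, 71.2 and 58 FPKM. All of them overlapped between groups, with log2 differences of -0.13, -0.12 and -0.12 and adjusted p from 0.719 to 0.741 by limma. In each of these 3 genes MST3 replicates 1 and 3 were lower than MST3 replicate 2. Of the exon bases of EIF3L 41.1% lie within AL022311.1 on the same strand, which averaged 0.211 FPKM. How reads on such shared exons were counted is not given. The remaining subunits EIF3A, EIF3B, EIF3D, EIF3E, EIF3F, EIF3I and EIF3K had log2 differences of -0.11 to 0.02.

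EIF3C stood apart from every other member in its spread. It had 10.2, 3.34 and 15.6 FPKM with vector and 5.53, 11.2 and 2.62 FPKM with MST3, from 313 to 1897 reads, so both groups held high and low libraries. The SD of its log2 values over the 6 libraries was 0.88, where the median member had 0.12 and the next highest, EIF5A, 0.30. EIF3C lies on chromosome 16 (28688558 to 28735730, plus strand, GRCh38), and its copy EIF3CL on the same chromosome (28379579 to 28403879, minus strand). Of the stretches of 50 bases in EIF3C transcripts, 45.5% occur in other genes, and for EIF3CL 97.2% occur in EIF3C. EIF3CL had 1.02 to 1.57 FPKM (55 to 84 reads). How reads that match both genes were counted is not given in the sources used here, and its part in the spread was not tested, so the log2 difference of -0.50 (SE 0.57) is uncertain.

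**Figure D3:**
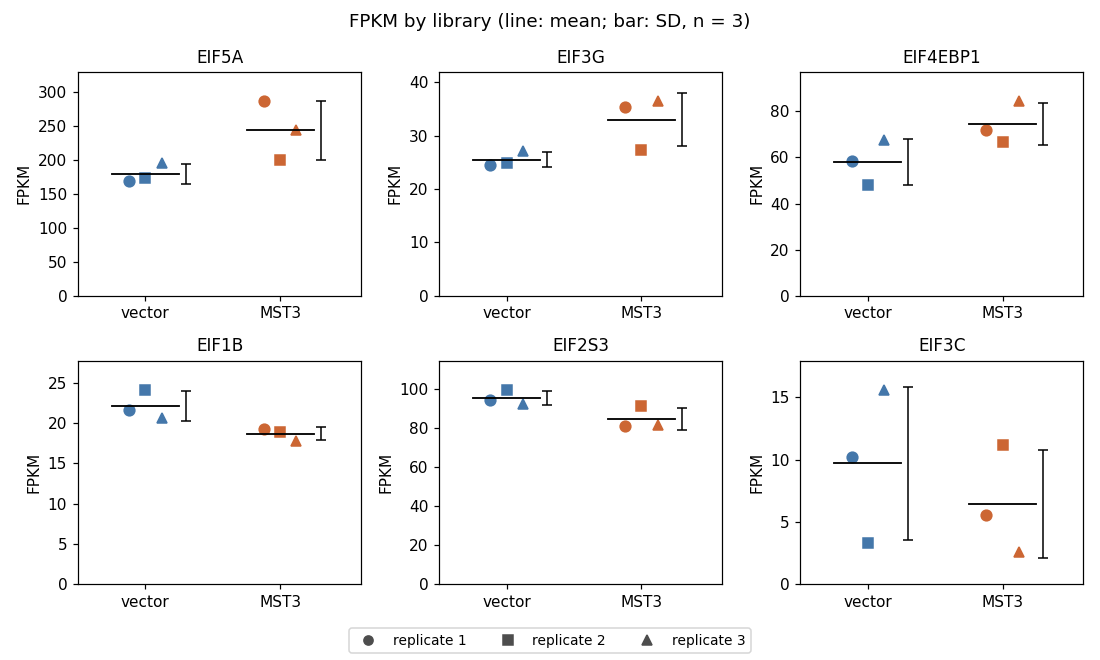
FPKM by library for 6 members (line for the mean, bar for the SD, n = 3, symbol shape for the replicate). EIF5A and EIF3G lie higher in MST3 libraries with MST3 replicate 2 nearest the vector values, EIF4EBP1 overlaps, EIF1B and EIF2S3 lie lower without overlap, and EIF3C scatters in both groups.

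The EIF4 symbols covered 16 genes, of which 13 were tested, with 9 lower and 4 higher and a median log2 difference of -0.06. EIF4E, the cap-binding protein, had 5.55, 5.73 and 5.37 FPKM in vector and 5.63, 5.78 and 4.96 FPKM in MST3 libraries. The groups overlapped, with MST3 replicate 2 just above the vector range and MST3 replicate 3 below it (log2 difference -0.02, 95% interval -0.21 to 0.17). EIF4E2, which binds the cap and represses translation, had 5.1, 5.01 and 5.19 FPKM against 6.39, 5.28 and 4.97 FPKM, with MST3 replicates 1 and 2 above the vector range and MST3 replicate 3 below it. The 2 genes had similar FPKM, EIF4E being 0.882 to 1.14 times EIF4E2. Their exon lengths were 14067 and 7177 bases, so similar FPKM does not show similar mRNA levels. EIF4E3 stood at 1.71 FPKM. EIF4E1B, a form known from germ cells, was too low to test and was listed at 0 in all 3 MST3 libraries.

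The scaffolds were led by EIF4G2, which lacks the cap-binding part and supports alternative routes of initiation. It had 86.7, 94.4 and 89.2 FPKM in vector and 67.7, 93.5 and 80.4 FPKM in MST3 libraries, so MST3 replicates 1 and 3 were low and replicate 2 was not (log2 difference -0.17, SE 0.13). EIF4G1, the main scaffold, had 64.1, 60.4 and 68.7 FPKM against 59.4, 65.9 and 74 FPKM, and EIF4G3 9.36, 9.58 and 9.31 FPKM against 8.53, 9.45 and 8.8 FPKM. EIF4G1 stood 6.31 to 8.41 times as high as EIF4G3, with overlap between groups. EIF4ENIF1, which carries eIF4E into the nucleus and to P-bodies, had 4.86, 4.86 and 4.64 FPKM against 4.04, 4.36 and 4.64 FPKM, with MST3 replicate 3 only just under the lowest vector library. Its log2 difference was -0.12 (SE 0.08, adjusted p = 0.719 by limma).

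The genes for the 4E-BP proteins, which hold eIF4E away from eIF4G until mTORC1 phosphorylates them, number 3, of which 2 were tested and none passed. EIF4EBP1 had 58.5, 48 and 67.8 FPKM in vector and 72.1, 66.6 and 84.5 FPKM in MST3 libraries. MST3 replicate 2 lay under vector replicate 3, so the groups overlapped. The means were 58.1 ± 9.91 and 74.4 ± 9.16 FPKM (SD, n = 3), with a log2 difference of 0.36 (SE 0.15, 95% interval 0.01 to 0.71) and an adjusted p = 0.719 by limma. EIF4EBP2 had 23.8, 26.7 and 25.7 FPKM against 20.5, 24.5 and 23.2 FPKM (log2 difference -0.16, SE 0.10). Within a library EIF4EBP1 stood 2.46, 1.8 and 2.64 times as high as EIF4EBP2 in vector libraries. In MST3 libraries it stood 3.52, 2.72 and 3.65 times as high, which did not overlap. The ratio of EIF4EBP1 to EIF4E did overlap, at 10.5, 8.38 and 12.6 against 12.8, 11.5 and 17. Neither ratio was tested, and both are among the pairs chosen by hand. EIF4EBP3, with 73.4% of its exon bases inside the read-through gene ANKHD1-EIF4EBP3, averaged 0.441 FPKM and was not tested.

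Among helicases and their helpers, EIF4A2 had 66.8, 66.3 and 59.1 FPKM in vector and 63.3, 66 and 53.8 FPKM in MST3 libraries, and replicate 3 was the lowest of each group (log2 difference -0.07, SE 0.11). EIF4A3, a helicase of the exon junction complex rather than of initiation, had 50.8 and 49.6 FPKM. EIF4A1, known as the abundant helicase of eIF4F, was listed at only 0.648 to 1.13 FPKM (59 to 96 reads per library) and was not tested. On chromosome 17 (7572706 to 7579005, plus strand, GRCh38) 48.6% of its exon bases lie within exons of other genes on the same strand, among them the read-through gene SENP3-EIF4A1 (29.8%) and AC016876.2 (41.1%), which themselves averaged 0.102 and 0.0168 FPKM. How reads on shared exons were counted is not given in the sources used here and its part in this level was not tested, so the value cannot be read as the level of EIF4A1 mRNA. EIF4H and EIF4B, which stimulate the helicase, were among the highest members. EIF4H had 169, 164 and 192 FPKM against 196, 180 and 198 FPKM, with MST3 replicate 2 inside the vector range (log2 difference 0.13, SE 0.10), and EIF4B had 151 ± 4.6 and 145 ± 12.6 FPKM (SD, n = 3).

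EIF5A, which helps the ribosome through difficult peptide bonds and in termination, had the largest positive difference of the members. It had 169, 173 and 196 FPKM in vector and 287, 200 and 245 FPKM in MST3 libraries. Every MST3 library was above every vector library, but MST3 replicate 2 exceeded vector replicate 3 only slightly. The means were 179 ± 14.4 and 244 ± 43.3 FPKM (SD, n = 3), a ratio of 1.36. Behind them stood 8775 and 11489 reads per library on average. limma gave a log2 difference of 0.43 (SE 0.14, 95% interval 0.09 to 0.77), with an unadjusted p = 0.02 and an adjusted p = 0.719. Over the alternatives the difference ran from 0.31, without MST3 replicate 1, to 0.56, without MST3 replicate 2, with an adjusted p of 0.209 to 0.999. Its near copy EIF5AL1 (chromosome 10, 79512601 to 79516440) had 4.62 FPKM with vector and 4.58 FPKM with MST3. The pseudogene EIF5AP4 averaged 24.9 FPKM in both groups, but its libraries spread unequally. It had 26.1, 25.2 and 23.5 FPKM with vector and 15.2, 22.7 and 36.8 FPKM with MST3. The part of reads shared with such copies in the EIF5A difference was not tested. EIF5A lies on chromosome 17 (7306999 to 7312463, plus strand, GRCh38), and 20.6% of its stretches of 50 bases occur in other genes.

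EIF5A2, the paralog of EIF5A, had 3.97, 5.69 and 4.55 FPKM in vector and 4.01, 4.31 and 4.25 FPKM in MST3 libraries, with vector replicate 2 above all others (log2 difference -0.13, SE 0.12). In FPKM EIF5A stood 42.6, 30.4 and 43 times as high as EIF5A2 in vector libraries. In MST3 libraries it stood 71.5, 46.4 and 57.6 times as high, which did not overlap. This ratio, also of a pair chosen by hand, was not tested. EIF5, which makes eIF2 hydrolyse GTP at the start codon, had 20.6 ± 0.708 and 19.4 ± 1.52 FPKM, and EIF5B, the GTPase that joins the subunits, 18.8 ± 1.8 and 18.8 ± 2.27 FPKM (SD, n = 3). The sum of the 5 EIF5 genes was 228 ± 15.1 against 291 ± 41.3 FPKM, and without EIF5A it was 48.7 ± 3.75 against 47 ± 3.22 FPKM (SD, n = 3). EIF6, which keeps free large subunits from joining too early, had 36.9, 31.2 and 37.8 FPKM in vector and 49.2, 35.5 and 42 FPKM in MST3 libraries. MST3 replicate 2 lay inside the vector range and the other 2 lay above it (log2 difference 0.25, SE 0.14, adjusted p = 0.719 by limma). Of the exon bases of EIF6 17.4% lie within AL121753.1 on the same strand (1.2 FPKM), and how shared reads were counted is not given.

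The 3 MST3 libraries did not depart from vector alike. In MST3 replicate 2, 11 of the 48 members were above the range of the vector libraries and 8 below it, while MST3 replicate 1 had 9 above and 24 below and MST3 replicate 3 had 14 above and 25 below. The same counts over all tested genes were 23.8% above and 26.7% below in MST3 replicate 2, 30.7 and 41% in replicate 1, and 37.5 and 38.6% in replicate 3.

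GC content moved with the difference. The members with the largest positive differences are rich in G and C, with 57.3% for EIF5A, 60.3% for EIF3G, 65.5% for EIF4EBP1 and 58% for EIF6. The median of tested members was 45.7%. EIF3J, next in order with a log2 difference of 0.22, had 38.8%. Of 17 members above the median GC content of tested genes 10 were higher in MST3 libraries, and of the 31 others 8 were higher. Over all tested genes the shares were 64.9% and 27.9%. Across the 48 members Spearman's rho between the difference and GC content was 0.46, and across 12933 genes it was 0.44; genes share the same 6 libraries and are not independent replicates. For single MST3 libraries against the vector mean, rho over the members was 0.28, -0.03 and 0.58 in replicates 1 to 3. Over the 12933 genes it was 0.22, -0.23 and 0.69, so MST3 replicate 2 ran opposite to the others. With each library's trend with GC content removed, an alternative chosen after seeing the data, the log2 difference was 0.35 for EIF5A, 0.24 for EIF3G, 0.20 for EIF4EBP1, 0.15 for EIF6, -0.17 for EIF1B and 0.29 for EIF3J. The unadjusted p by limma was then 0.0253 for EIF5A, 0.018 for EIF3G, 0.0925 for EIF4EBP1, 0.202 for EIF6, 0.0348 for EIF1B and 0.0156 for EIF3J, with an adjusted p of 0.679 for EIF6 and 0.661 for the others. At an unadjusted p under 0.05 there were then 4 members and 910 of the 13036 tested genes, in place of 701 genes with the trend left in.

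**Figure D4:**
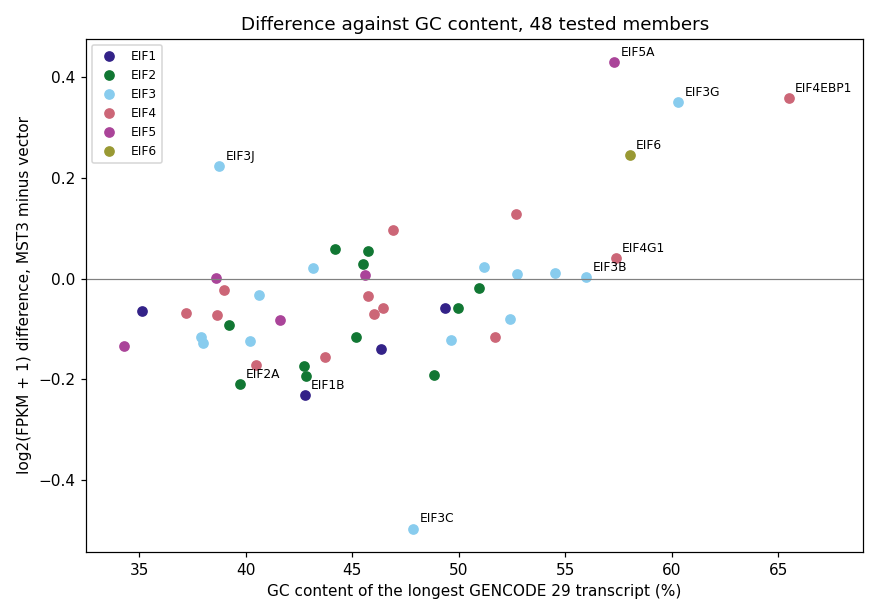
Difference on the log2(FPKM + 1) scale between MST3 and vector libraries against GC content of the longest GENCODE 29 transcript, 1 point for each of the 48 tested members, coloured by factor. EIF5A, EIF3G, EIF4EBP1 and EIF6 lie at the upper right, at 57.3 to 65.5% GC, while most members under 45% GC lie below 0.

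The genes around the initiation factors gave 0 calls in every list. Of 12 genes of the integrated stress response, the pathway that acts through phosphorylated eIF2, 5 were higher and 7 lower (median -0.02). EIF2AK1, the kinase that senses haem, had 49.8, 58.5 and 51 FPKM in vector and 40.8, 47.7 and 45.5 FPKM in MST3 libraries, without overlap (log2 difference -0.24, adjusted p = 0.719 by limma), and EIF2AK4, the kinase that senses amino acid shortage, 9.01 and 7.91 FPKM. ATF4, the transcription factor this response induces, had 104 ± 10.2 and 106 ± 6.71 FPKM (SD, n = 3). Of 14 genes of the mTORC1 and MNK arm 9 were higher and 5 lower (median 0.01). The 2 with the smallest p were MTOR (11.2 and 9.6 FPKM) and LARP1 (22.7 and 20.6 FPKM). In this list 3 genes did not overlap between groups, MTOR, LARP1 and TSC1, each lower with MST3. In the stress response list 1 did not, EIF2AK1. Over all tested genes 11.9% did not overlap. Of 13 other cofactors 4 were higher and 9 lower (median -0.09), with BZW2, a mimic of eIF5, at 28.8 and 25 FPKM and PABPC1, the poly(A)-binding protein, at 813 ± 54.4 and 710 ± 114 FPKM (SD, n = 3).

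Of 12 elongation and termination factors 9 were tested, with 4 higher and 5 lower (median -0.02). DOHH, which completes hypusine on eIF5A, had 8.85, 6.87 and 9.68 FPKM in vector and 10.6, 8.79 and 13.8 FPKM in MST3 libraries, with overlap (log2 difference 0.34, SE 0.17, adjusted p = 0.719 by limma). GSPT1, a release factor, had 25.4 and 22.9 FPKM. DHPS, which begins the same modification, averaged 0.44 and 0.6 FPKM and was not tested, and EEF1G and GSPT2 were listed at 0 in all 6 libraries. A listed 0 does not show absence here, since how reads that fit several genes were counted is not given. Of 6 mitochondrial translation factors 3 were higher and 3 lower (median 0.02). MTIF3, an initiation factor of mitochondria, had 9.75 and 8.28 FPKM without overlap (log2 difference -0.21, adjusted p = 0.719 by limma). TUFM did not overlap the other way, at 151 and 169 FPKM, where 11.9% of all tested genes did not overlap. MTRF1L, a release factor, had 3.33 and 4.17 FPKM.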

How the data were processed

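The authors deposited 1 table of FPKM values with a column per library, 3 vector and 3 MST3. Per the submitters' processing notes the tools included HISAT2. The sources used here do not give its version, the counter, the strand setting, the build or the annotation, but all 52 members matched GENCODE 29 (GRCh38) in position and length. FPKM times gene length was a whole multiple of 1 step per library in 100.0% of values (tolerance 0.01), which gave the reads. Values were tested as log2(FPKM + 1) by limma 3.58.1 in R 4.3.3 with an intensity trend, two-sided, for the 13036 genes averaging 1 FPKM or more, with Benjamini-Hochberg adjustment over all of them and a threshold of 0.05. This scale understates changes of low genes. Overlaps and stretches of 50 bases shared with other genes came from GENCODE 29; aligned coding sequences were compared with Biopython 1.88 for the transcripts with the longest coding region. The members and lists were chosen with earlier results of these data known. Members were named by smallest unadjusted p (2 in EIF1 and EIF5, 3 in EIF2, 5 in EIF3 and in EIF4, and EIF6), with 6 pairs of paralogs in any case where tested, and for each list the 2 genes of smallest p; others named are given for their level, copies or overlap, or as background. Alternatives covered pseudocount, filter, scaling, variance model, length and GC trends, the replicate block, voom, protein-coding genes alone and each library left out.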

Additional observations from a re-analysis of the deposited data

How the results depend on the processing

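Across 18 alternatives, limma called 0 members and 1 gene, STK24, each time. The median difference of the tested members ran from -0.09 to -0.02. Of 23 named members 20 kept their direction throughout. EIF4E turned to 0.04 with the length trend removed, 0.04 with the GC trend removed, 0.01 by voom and 0.03 without MST3 replicate 3. EIF4G1 turned to -0.01 with sample weights, -0.04 with the GC trend removed, -0.00 without vector replicate 2 and -0.04 without MST3 replicate 3, and EIF4A2 to 0.01 without MST3 replicate 3. With single libraries left out EIF4E ran from -0.06 to 0.03, EIF4G1 from -0.04 to 0.12 and EIF4A2 from -0.13 to 0.01. The GC alternative was chosen after seeing the data, and the cause of these turns was not tested. Members at an unadjusted p under 0.05 numbered 0 to 10 with single libraries left out, where an arm had 2 libraries, and 3 to 5 otherwise. With the replicate number as a block there were 0 members called and 5 at an unadjusted p under 0.05 (EIF6 joined), against 1338 of all genes in place of 701. Same-numbered libraries did not all deviate together (r = 0.0158, 0.226 and 0.035), and not every library correlated best with its own number, so the numbers were not used as pairs. Over all genes, the count at an unadjusted p under 0.05 was 298 without vector replicate 2 and 2554 without MST3 replicate 2. Depth limits EIF1AY, EIF4E1B and EIF4EBP3, whose group means were at most 8.67 reads per library.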

Other observations

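The table also holds 72 pseudogene entries named after initiation factors, of which 11 averaged at least 1 FPKM and 4 at least 10 FPKM. EIF1AXP1, a processed copy of EIF1AX, averaged 28.3 FPKM, above EIF1AX itself at 20.9 FPKM. EIF5AP4 averaged 24.9 FPKM, with 15.2 to 36.8 FPKM over the MST3 libraries and 23.5 to 26.1 FPKM over the vector libraries. EIF4EP2 had 14.3, 15.3 and 15.7 FPKM in vector and 17.5, 17.9 and 16.6 FPKM in MST3 libraries, above EIF4E at 5.5 FPKM and without overlap between the groups. It was not called (log2 difference 0.19, adjusted p = 0.719 by limma), and 11.9% of all tested genes did not overlap. EIF3FP3 averaged 14.3 FPKM. FPKM of a processed copy is divided by its own, shorter length, and reads that fit both a copy and its parent were not separated here.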
